A study of Mus musculus with 6 samples.

Results

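The calpain protease family was read as 10 genes, Capn1, Capn2, Capn3, Capn5, Capn7, Capn9, Capn10, Capn15, Capns1 and Cast, out of 60832 genes in the table. They were chosen by symbol, and the family was chosen with the difference of Capn9 between the groups already known. The values of the members between the groups are therefore descriptions, and counts of members past a threshold stand below only beside the share of all genes, with nothing read from them. The libraries hold RNA of primary cells labelled as liver sinusoidal endothelial cells (LSECs), taken by the study's methods with anti-CD146 beads from tumor tissue in mouse liver and labelled as cultured for 24 h. The tumors were HCT116 xenografts, grown in the liver from this established human colorectal line as a model of colorectal cancer liver metastasis (CRCLM). The sensitive and the resistant group had 3 libraries each, named for the response of the xenograft to bevacizumab, and all hosts were male BALB/c-Nu mice, obtained young, which lack mature T cells. Bevacizumab is an antibody against VEGF, the resistant tumors were made by sustained treatment with it, and the vehicle animals of the study received IgG. The labels do not say which libraries came from separate animals, so the spread between them may be partly technical.

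Calpains are calcium-dependent cysteine proteases of the cytosol. They cut a substrate at a small number of sites and so alter it, where the proteasome or the lysosome would destroy it. The classical enzymes calpain-1 (Capn1) and calpain-2 (Capn2) each pair with the small regulatory subunit Capns1, and both are held back by calpastatin, the inhibitor made from Cast. Talin, filamin and spectrin are among their known substrates, and in endothelial cells and macrophages calpains are known for their part in adhesion, spreading and migration. Other members are restricted to few tissues, such as Capn3 in skeletal muscle and Capn9 in the digestive tract, and Capn5, Capn7, Capn10 and Capn15 lack the calcium-binding domain of the classical enzymes.

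The stretches of 250 bases upstream of a transcription start listed by RefSeq are shown for the regulatory subunit and its catalytic partners, the most abundant members, and for Capn9, the member with reads in 1 group alone. The sequences are those of RefSeq on GRCm38.p6, read 5′ to 3′ on the strand of the gene, with each CG dinucleotide in capitals. The stretches are chr7:30195154-30195403 on the minus strand for Capns1, chr19:6015826-6016075 on the minus strand for Capn1, chr1:182517611-182517860 on the minus strand for Capn2 and chr8:124575861-124576110 on the plus strand for Capn9. The stretch of Capns1 lies inside the span of the GENCODE gene model given below, upstream of an internal start that RefSeq lists. The stretch of Capn1 lies in part inside the span of its gene model, which reaches to 6015897.
Capns1: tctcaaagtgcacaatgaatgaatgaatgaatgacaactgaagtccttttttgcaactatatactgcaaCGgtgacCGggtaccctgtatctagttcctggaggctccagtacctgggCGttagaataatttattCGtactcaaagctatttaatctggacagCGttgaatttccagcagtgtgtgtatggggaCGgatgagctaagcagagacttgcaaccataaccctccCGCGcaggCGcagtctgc
Capn1: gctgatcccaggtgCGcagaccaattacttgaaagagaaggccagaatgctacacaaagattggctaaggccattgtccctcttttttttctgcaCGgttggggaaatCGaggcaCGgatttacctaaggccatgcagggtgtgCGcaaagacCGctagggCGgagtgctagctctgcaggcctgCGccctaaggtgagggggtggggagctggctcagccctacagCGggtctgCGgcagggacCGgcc
Capn2: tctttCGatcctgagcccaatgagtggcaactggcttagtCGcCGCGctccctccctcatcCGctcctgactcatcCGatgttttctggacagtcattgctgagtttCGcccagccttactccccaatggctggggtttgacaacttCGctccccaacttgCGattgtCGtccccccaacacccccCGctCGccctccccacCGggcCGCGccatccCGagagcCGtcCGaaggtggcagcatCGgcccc
Capn9: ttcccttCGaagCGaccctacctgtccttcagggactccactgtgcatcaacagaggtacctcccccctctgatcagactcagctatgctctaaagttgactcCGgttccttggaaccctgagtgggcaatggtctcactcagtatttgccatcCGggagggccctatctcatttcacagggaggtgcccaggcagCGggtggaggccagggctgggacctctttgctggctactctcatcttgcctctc
Capn2 had 19 CG dinucleotides in its stretch, Capn1 had 11, Capns1 had 9 and Capn9 had 5, where the median over 32851 stretches of the same length was 6. The stretch of Capn2 passed both a G and C share of at least 50% and a ratio of observed to expected CG of at least 0.6, as did 31.0% of all stretches. Capn10, Capn7 and Capn15 also had a stretch past both limits, so these were 4 of the 9 members with an entry. Some members had several stretches. Counted as single stretches, as in the share of 31.0%, 5 of 16 passed both limits. For Capn9 the ratio was 0.248. The letters TATAAA, sought on both strands, were in 0 of the 16 stretches of the members and in 12.4% of all stretches.

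Total counts on genes were between 17599326 and 20726684 per library, so that 3 counts, taken here as the floor, corresponded to between 0.145 and 0.170 CPM (the count relative to the library's total). The floor covers counting error only. The data went against the label of the cells in part, since 17 macrophage and Kupffer cell markers summed to between 27256 and 41878 CPM, 10 LSEC markers to between 133.3 and 502.8 CPM and 10 pan-endothelial markers to between 47.1 and 400.3 CPM. The levels below are thus levels in the bulk RNA of these libraries, in which fewer cells of a type and less RNA per cell cannot be told apart. Replicate 2 of the sensitive group stood apart from the other libraries. Its mitochondrial transcripts made up 0.132% of counts against 0.815% to 1.13% in the others. The CPM of the longest of 3 classes of the tested genes was lower in this library by a median of -0.77 on the log2 scale, set against the mean of the other 5 libraries, and that of the shortest class was higher by 0.19.

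Capns1 was the most abundant member in every library. Levels between genes were compared in FPKM, which divides the count by the length of the gene. Capns1 (chromosome 7 of GRCm38 from GENCODE M21, 30186936 to 30198811) had 152.2 ± 30.5 FPKM (SD, n = 6), Capn1 (chromosome 19, 5988545 to 6015897) 30.2 ± 8.16 (SD, n = 6) and Capn2 (chromosome 1, 182467260 to 182517608) 18.0 ± 4.33 (SD, n = 6). The mean difference between Capns1 and Capn1 was 2.35 ± 0.38 on the log2 scale (SD, n = 6), with the order held in 6 of 6 libraries. Capn1 was above Capn2 in 6 of 6 libraries, yet by 0.74 ± 0.67 (SD, n = 6) in all and by 0.48 ± 0.20 (SD, n = 5) without replicate 2 of the sensitive group. Capn7 followed with 10.8 ± 3.57 FPKM and Cast with 8.49 ± 0.853 (SD, n = 6), with a log2 difference of 0.24 ± 0.58 (SD, n = 6), within its spread. Cast was the higher in replicate 2 of the sensitive group, and in the other libraries Capn7 was above Cast by 0.47 ± 0.13 (SD, n = 5), beyond the spread. Capn15 had 4.61 ± 1.42, Capn10 2.41 ± 0.473 and Capn5 1.84 ± 0.438 FPKM (SD, n = 6), each in this order in 6 of 6 libraries. Capn9 was listed at 0 in 3 libraries and Capn3 at 0 in 5. By CPM, without length, 7 of the 9 neighbouring pairs kept this order. In CPM, Cast was above Capn7 in every library, and Capn2 was above Capn1 in all but replicate 2 of the sensitive group.

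**Figure D1:**
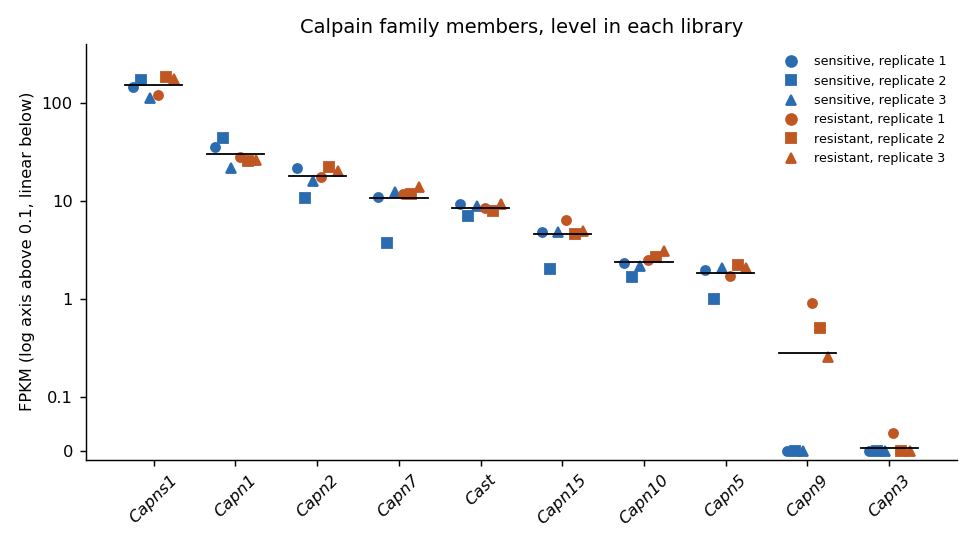
FPKM of the 10 members (log axis above 0.1, linear below) in each library, with blue marks for the sensitive and orange for the resistant group and a line at the mean of the 6 libraries. Capns1 lies between 111.4 and 184.4 FPKM, above every other member, and Capn9 and Capn3 lie at the bottom.

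Among the partners and the inhibitor, the balance was similar in most libraries. Capn1 and Capn2 together made up between 63.8% and 86.6% of the FPKM of the 8 catalytic members. The ratio of Capn1 to Capn2 in FPKM was 1.61, 4.16 and 1.35 in sensitive replicates 1, 2 and 3, and in the resistant ones 1.61, 1.16 and 1.30. Replicate 2 of the sensitive group was alone in this ratio, and the other 5 libraries lay between 1.16 and 1.61. Capns1 was 2.57, 3.14 and 2.94 times the sum of Capn1 and Capn2 in the sensitive group and 2.67, 3.88 and 3.82 times in the resistant group. These ranges overlapped. The inhibitor Cast was between 0.130 and 0.238 of the sum of both enzymes in FPKM over the 6 libraries. The length used for Cast was 11470 bases, the exon union over 13 transcripts, and this ratio depends on that length.

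Capn9, which encodes a calpain known from the digestive tract, had 0 counts in each sensitive library and 46, 24 and 12 counts in resistant replicates 1, 2 and 3. It is listed as ENSMUSG00000031981 and lies on the plus strand of chromosome 8 of GRCm38 from 124576111 to 124618731, with 20 exonic blocks and no annotated gene overlapping it. Every resistant library was thus above every sensitive one. In CPM the resistant libraries had 2.22, 1.21 and 0.624, against floors of 0.153, 0.170 and 0.146 in the sensitive ones. The mean of the resistant group, 1.35 ± 0.807 CPM (SD, n = 3), was 8.65 times the mean floor of 3 counts per sensitive library. The lowest resistant library was 3.66 times the highest of these floors. The resistant libraries also differed among themselves, and the highest was 3.56 times the lowest. Even there the level was low, with 0.919, 0.503 and 0.259 FPKM, below that of Capn5 in each of the 6 libraries.

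Over the whole table, Capn9 was the 1 gene of 60832 with 0 counts in all 3 libraries of a group and at least 10 counts in each library of the other. This limit was set after the values of Capn9 had been seen, so it describes the gene and tests nothing. With at least 5 counts, 2 genes were at 0 in the sensitive group, Capn9 and Slc44a3, and 1, Otor, was at 0 in the resistant group. With at least 3 counts there were 16 and 8 such genes. Slc44a3 had 6, 6 and 19 counts in the resistant group, and Otor 5, 12 and 7 in the sensitive group.

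Markers of tissues in which Capn9 is known were read beside it. Of 8 markers of gastric and intestinal surface cells in the table, 5 were at 0 in every library, among them Tff1, Gkn1 and Gkn2, and the 8 summed to between 0 and 1.82 CPM. Vil1, the villin of the brush border, held most of the remaining counts, with 2, 12 and 0 in the sensitive and 16, 10 and 26 in the resistant group, and Tff2 had 2, 20 and 0 counts in the sensitive and 0 in each resistant library. Vil1 was thus higher on average in the resistant group, as Capn9 was, with overlap between the groups, and its part in the level of Capn9 was not tested. Capn8, the usual partner of Capn9 in the stomach, had 1 count in 6 libraries. A list of 8 epithelial genes summed to between 12.2 and 297.9 CPM in the sensitive and between 96.2 and 276.9 CPM in the resistant group. The epithelial sum was highest in replicate 2 of the sensitive group, where Capn9 had 0 counts. The part of epithelial cells in the level of Capn9 was not tested. Genes that lie around Capn9 were chosen after its values had been seen. Within 200 kb of it, 6 genes were tested, of which 5 had a log2 fold change (resistant against sensitive) above 0, where 50.8% of all genes tested did. For 3 of them, Ttc13, Arv1 and Fam89a, every resistant library was above every sensitive one, as for 5.01% of all genes tested. Fam89a, the last of these, had 12, 0 and 16 counts in the sensitive group and 75, 44 and 21 in the resistant group. Its resistant libraries fell in the same order as those of Capn9. Arv1 had 121, 22 and 103 counts in the sensitive and 214, 139 and 146 in the resistant group. Agt, the closest gene on the other side, was high in 1 library alone, with 27.9 CPM in replicate 2 of the resistant group against 0.827 to 2.70 in the others, and the sum of 8 hepatocyte markers was also highest in that library, at 159.0 CPM. After adjustment 0 of the 6 passed 0.05 by the quasi-likelihood test of edgeR, by DESeq2 or by limma-voom. Before adjustment 1, Agt, passed in edgeR, where 3.08% of all genes tested did.

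**Figure D2:**
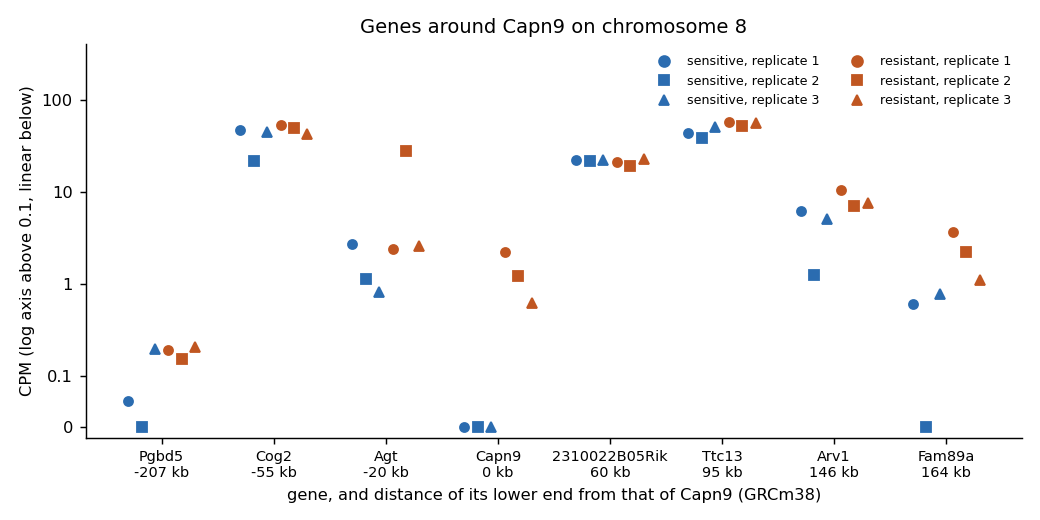
CPM (log axis above 0.1, linear below) of Capn9 and the genes around it with at least 3 counts in a library, in their order along chromosome 8, with the distance of each gene's lower end from that of Capn9. Capn9 is at 0 in the 3 sensitive libraries and between 0.624 and 2.22 in the resistant ones, and 2310022B05Rik next to it lies between 18.8 and 22.7 in the 6 libraries.

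Capn3, the calpain of skeletal muscle, had 3 counts in replicate 1 of the resistant group and 0 in the other 5 libraries. It did not pass the filter on low counts and, with both groups at or under the floor, has no fold change. Of 8 skeletal muscle markers, Myh1, Myh4 and Actn2 were at 0 in all 6 libraries, Tnni2 had between 62 and 239 counts and Mylpf between 8 and 23, and the 8 summed to between 3.70 and 14.7 CPM. Of 7 further calpain genes listed, 6 were in the table and none passed the filter. Capns2, a close relative of Capns1, had 10 counts in replicate 2 and 2 in replicate 3 of the sensitive group and 1 in replicate 2 of the resistant group. Capn12 had at most 6 counts in a library, Capn11 at most 2, and Capn6, Capn8 and Capn13 at most 1. Capn14 was not analysed here.

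Between the groups, 9 members passed the filter on low counts, of which Capn9 passed through the resistant libraries alone. The calls of Capn9 given next come from the values for which the family was chosen. Over 15474 genes, the quasi-likelihood test of edgeR with Benjamini-Hochberg adjustment called 0 of the 9 at 0.05, and 0% of all genes tested. Before adjustment 1 member passed, Capn9, where 3.08% of all genes passed, 0.536% upward and 2.54% downward. After adjustment DESeq2 called 1 member, Capn9, and 0.155% of all genes (4.73% before adjustment), and limma-voom called 0 members. Without any filter on low counts, edgeR gave 0 members and 0.00587% of all genes after adjustment. The groups did not overlap in CPM for Capn9 and Capn10, both higher in the resistant group, and for no member lower in it, where 5.01% of all genes did so upward and 3.38% downward. Leaving out Capn9, 6 members had a log2 fold change above 0 and 2 below, with a median of 0.24, where 50.8% of all genes were above 0 and their median was 0.01. Without replicate 2 of the sensitive group this median was 0.08, with 5 above 0 and 3 below.

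**Figure D3:**
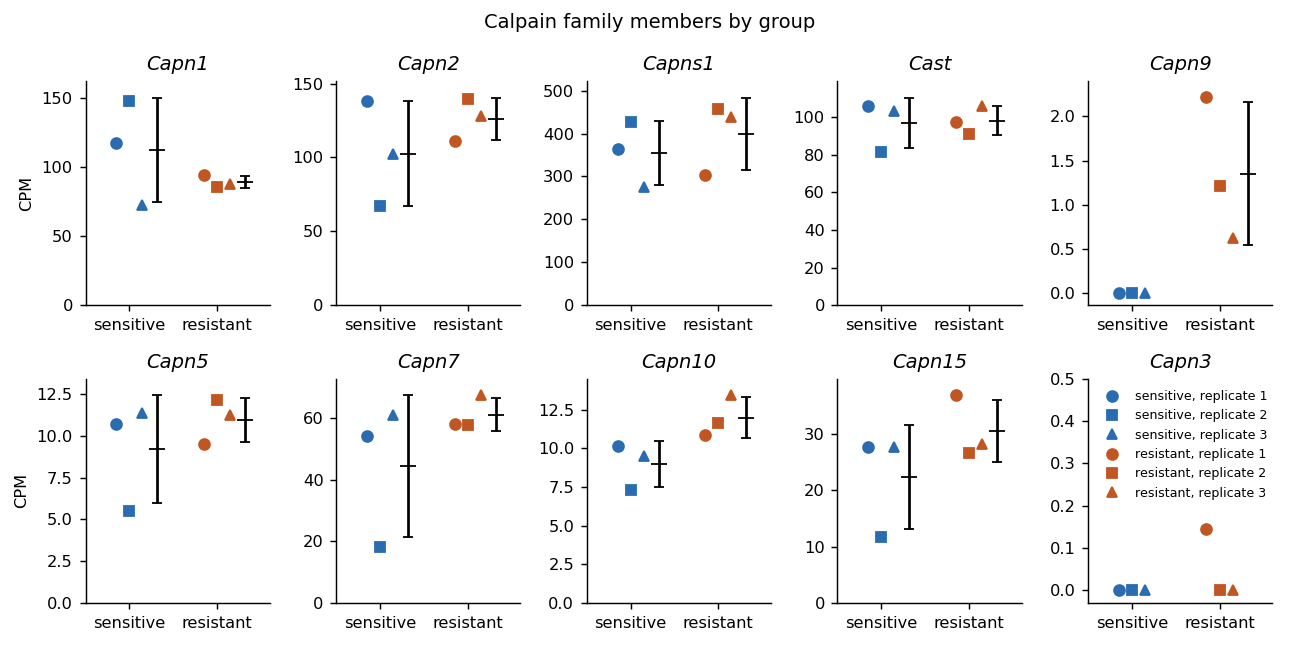
CPM of each member in the 3 sensitive (blue) and 3 resistant (orange) libraries, with the mean and SD of the group in black (not drawn for Capn3 or for the sensitive group of Capn9). The groups overlap in every panel but those of Capn9 and Capn10.

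The classical enzymes and their subunit overlapped between the groups. Capn1 had 117.8, 147.8 and 72.7 CPM in the sensitive and 94.3, 85.6 and 87.9 CPM in the resistant group, so the resistant libraries lay inside the range of the sensitive ones. The log2 fold change of Capn1 of -0.43 (standard error 0.31) shrank to -0.08 without sensitive replicate 2. The summed level of 7 neutrophil markers moved with Capn1, as it was highest in sensitive replicates 2 and 1, with 5847 and 4250 CPM, and between 241.1 and 1459 CPM in the other 4 libraries. Its part in the values of Capn1 was not tested. Capn2 had 138.5, 67.3 and 102.2 CPM in the sensitive and 111.0, 139.6 and 127.8 CPM in the resistant group, and only sensitive replicates 2 and 3 lay below all resistant libraries. Its log2 fold change of 0.26 (standard error 0.25) was 0.08 without replicate 2 of the sensitive group. Capns1 had 363.2, 425.8 and 275.9 CPM in the sensitive and 302.3, 456.7 and 438.8 CPM in the resistant group, with a log2 fold change of 0.09 (standard error 0.30) that took either sign as single libraries were left out, from -0.06 to 0.34.

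Cast varied least of all members. It had 105.9, 81.4 and 103.2 CPM in the sensitive and 97.3, 90.7 and 106.0 CPM in the resistant group. Its coefficient of variation in FPKM over the 6 libraries was 10.0%, against 19.6% to 33.1% for the 7 others with reads in every library. Without replicate 2 of the sensitive group the gap was small, with 6.51% for Cast, 8.19% for Capn7 and 8.86% for Capn5, and up to 21.8% for Capns1. The log2 fold change of Cast, -0.04 (standard error 0.18), turned above 0 with library totals alone as the scaling, with no filter and on the FPKM scale. Cast lies on chromosome 13 (74692368 to 74808810), and 834 of its exonic bases overlap exons of Erap1 on the other strand. Reads there cannot be assigned by position alone, since a strand setting is not given in the sources used here.

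The members without the classical calcium-binding domain were low in replicate 2 of the sensitive group, and so was Capn2, a classical enzyme. The CPM in that replicate was 0.544 times the mean of the other 5 libraries for Capn2. For Capn7, Capn15, Capn5 and Capn10 it was 0.306 to 0.660 times that mean, so the low level was not particular to them. Capn7, whose product is known to bind the ESCRT-III membrane-remodelling machinery, had 54.2, 18.2 and 60.8 CPM in the sensitive and 58.1, 57.8 and 67.3 CPM in the resistant group. Capn15, which carries zinc fingers, had 27.6, 11.6 and 27.6 CPM in the sensitive and 36.8, 26.6 and 28.1 CPM in the resistant group. Capn5 had 10.7, 5.51 and 11.4 CPM in the sensitive and 9.50, 12.1 and 11.2 CPM in the resistant group. In each of these genes that replicate was the lowest library and the other 5 overlapped. The log2 fold changes of Capn7, Capn15 and Capn5 were 0.43 (standard error 0.38), 0.41 (standard error 0.32) and 0.21 (standard error 0.32), and without this replicate 0.09, 0.14 and -0.01. Capn10, known from studies of diabetes risk, had 10.1, 7.33 and 9.49 CPM in the sensitive and 10.9, 11.6 and 13.4 CPM in the resistant group. All 3 resistant libraries were above the sensitive ones, by a small margin between 10.1 and 10.9 CPM. The log2 fold change of Capn10 came to 0.36 (standard error 0.25), or 0.29 without replicate 2 of the sensitive group. Exons of other genes overlap those of 8 of the 10 members, and by 0 bases in Capn5 and Capn9. The overlap reached 1717 bases in Capn2 (Gm37885), 1105 in Capn15 (D630044L22Rik), 639 in Capn10 (9430060I03Rik) and 394 in Capn1 (Gm10814), all of these on the other strand. In Capn3 it was 386 bases with Ganc, which lies on the same strand.

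**Figure D4:**
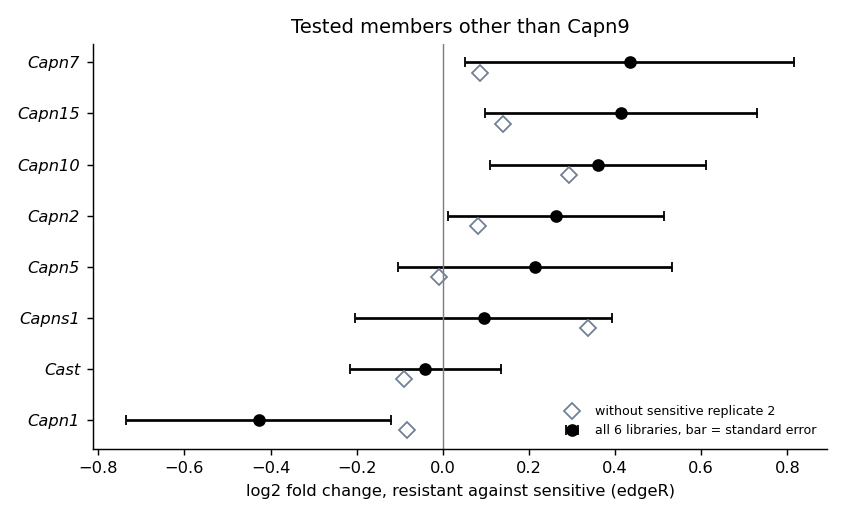
Log2 fold change of 8 members, resistant against sensitive (black, bar = standard error), with the value without replicate 2 of the sensitive group (open diamonds). Capn1 moves from -0.43 to -0.08 and Capn7 from 0.43 to 0.09. Capn9, with 0 counts in a group, is not drawn.

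The departure of replicate 2 of the sensitive group ran in both directions among the members. Its CPM was 1.61 times the mean of the other 5 libraries for Capn1 and 1.16 times for Capns1, the shortest gene models, at 3346 and 2477 bases, among the 8 members with reads in every library. The other 6 of these were lower in it, from 0.306 times for Capn7 to 0.809 times for Cast, and their gene models were between 4346 and 11470 bases. Over all genes tested, the medians in this library were 0.19 in the short, -0.32 in the middle and -0.77 in the long class on the log2 scale. In the other 5 libraries the medians of the classes lay between -0.20 and 0.16. The middle class ran from 2709 to 5314 bases, and members departed from the median of their class. In sensitive replicate 2, Capn1 and Capn7, both in the middle class, were at 0.69 and -1.71. Cast, in the long class, was at -0.31. The part of gene length in the values of the members was not tested.

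**Figure D5:**
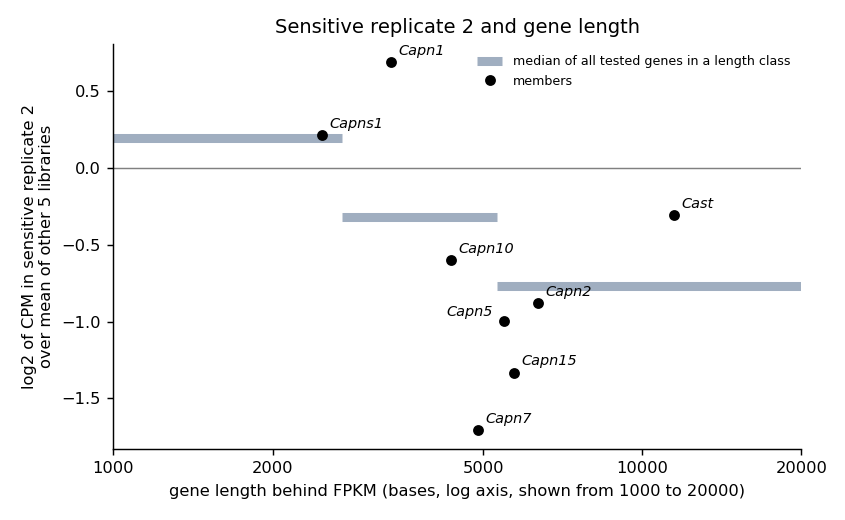
Log2 of CPM in replicate 2 of the sensitive group over the mean of the other 5 libraries, against the gene length behind FPKM in bases (log axis), for 8 members (points) and as the median of all tested genes in 3 length classes (grey bars). Capns1 and Capn1 lie above 0, and the 6 longer members below it.

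Genes around the calpains in function were read from lists. Of 18 known calpain substrates, all were tested, and 12 had a log2 fold change above 0 and 6 below, with a median of 0.15, where 50.8% of all genes were above 0. Without replicate 2 of the sensitive group, 8 were above 0 and 10 below, with a median of -0.02. The most abundant were vimentin (Vim), with 1274 ± 359.4 CPM in the sensitive and 1287 ± 418.1 in the resistant group (SD, n = 3), and filamin A (Flna), with 962.2 ± 288.6 and 1078 ± 228.4 CPM (SD, n = 3). Myh9 and Tln1, which encode nonmuscle myosin and talin, had log2 fold changes of 0.20 (standard error 0.24) and 0.22 (standard error 0.25), which were 0.02 and 0.0087 without that replicate. Itgb3, the β3 integrin subunit, was the 1 substrate of 18 whose groups did not overlap, where 3.38% of all genes did so downward, with 152.7, 213.2 and 157.3 CPM in the sensitive and 150.9, 18.2 and 127.0 in the resistant group, a margin of 150.9 against 152.7 CPM, and the value in replicate 2 of the resistant group was far below the others. The pan-endothelial sum was also lowest in that library, at 47.1 CPM, and its part in the value of Itgb3 was not tested.

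Of 18 genes of calcium entry, release and pumping, 10 had a log2 fold change above 0 and 8 below, with a median of 0.13, and without replicate 2 of the sensitive group 8 were above and 10 below, with a median of -0.04. The pumps Atp2a2 and Atp2b1 had the highest CPM among them, with log2 fold changes of 0.47 (standard error 0.46) and 0.14 (standard error 0.39), or 0.07 and -0.21 without that replicate, followed by the channels P2rx4 and Trpv2 with -0.17 (standard error 0.24) and -0.04 (standard error 0.27), or -0.18 and 0.07. Itpr3, a calcium release channel of the endoplasmic reticulum, was the 1 gene of these 18 without overlap, where 5.01% of all genes did so upward, with 39.7 to 73.6 CPM in the sensitive and 77.4 to 85.7 in the resistant group. The 4 genes that share the penta-EF-hand fold with calpains, Sri, Pdcd6, Pef1 and Gca, had log2 fold changes from -0.30 to -0.04, such as -0.25 (standard error 0.18) for Sri, or sorcin, and without that replicate 2 were above 0 and 2 below.

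Other intracellular proteases were far apart from the calpains in level. The lysosomal cathepsins Ctsb, Ctss, Ctsz and Ctsl had 2639, 1724, 1202 and 497.3 FPKM on average over the 6 libraries, each above Capns1. Casp8 and Casp1 had 27.5 and 21.4 FPKM, between Capn1 and Capn2. Of 11 cathepsin and cystatin genes tested, 6 had a log2 fold change above 0 and 5 below (median 0.02), and of 9 caspases 6 were above 0 and 3 below (median 0.05). Without replicate 2 of the sensitive group these were 5 and 6 (median -0.03) and 3 and 6 (median -0.10). Casp1, which processes interleukin-1β, was the 1 caspase of 9 whose groups did not overlap, where 5.01% of all genes did so upward, with 59.6 to 66.8 CPM in the sensitive and 69.1 to 71.1 in the resistant group. Casp4, an inflammatory caspase, had 24.6, 34.3 and 16.7 CPM in the sensitive and 20.2, 11.99 and 8.999 in the resistant group, with an edgeR p of 0.0493 before and 0.940 after adjustment. It was the 1 gene of these lists, beside the members, that passed 0.05 before adjustment, where 3.08% of all genes did. After adjustment 0 genes of these lists passed in edgeR, DESeq2 or limma-voom.

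The genes most like the members in their profile of log2 CPM over the 6 libraries were named by Pearson's r, as a description without a test, since all genes share the same 6 libraries and their groups. For Capn9 they were Hps6 (r = 0.998), Ccdc159 (r = 0.986) and Zbtb8a (r = 0.966). Hps6 lay between 16.8 and 20.4 CPM in the sensitive and between 23.2 and 26.4 CPM in the resistant group, so its level was high where that of Capn9 was at 0. For Capns1 the closest gene was Traf4 (r = 0.994), for Capn2 it was Hoxa2 (r = 0.996) and for Cast it was Vwa7 (r = 0.985). Hoxa2 had at most 0.809 CPM, and replicate 2 of the sensitive group was its lowest library as it was for Capn2.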

How the data were processed

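The members and lists were chosen with earlier results of these data known. Total RNA of 6 libraries was sequenced after ribosomal RNA depletion per the labels, and the study's methods also name poly(A) selection. The authors aligned reads with HISAT2 2.0.5, counted them on genes with featureCounts 1.5.0-p3 and deposited raw counts without normalization, besides FPKM values, made by the authors from the count, the library total and a gene length. The processing notes name mm9, but of 8921 well-counted genes 98.5% had a length within 1% of the exon union of GENCODE M21 (GRCm38), so coordinates are given on GRCm38. A second deposited table holds the authors' DESeq2 comparison, and no value given here was taken from it. Capn9 had, however, been seen among the calls of a deposited comparison before the family was chosen. The samples were grouped by their titles.

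CPM is the count over the library total. Genes were filtered with filterByExpr, normalized by TMM and tested, resistant against sensitive, with edgeR 4.0.16 (R 4.3.3, robust quasi-likelihood test, two-sided, Benjamini-Hochberg adjustment over 15474 genes, threshold 0.05). Fold changes and their standard errors come from this fit. The script was checked on simulated counts. Alternatives were DESeq2 1.42.0, limma-voom and limma on log2(FPKM + 1) or log2(FPKM + 0.1) (limma 3.58.1), other scalings and filters, no robust moderation, a block for the replicate number, and leaving out each library. Named genes are all members and further calpains, the up to 4 most abundant genes of each list (1 of them is not reported here) and any called, and the 3 genes closest in log2 CPM (prior count 2) to Capns1, Capn9, Capn2 and Cast. Genes without overlap, Casp4, the neighbours of Capn9, Slc44a3 and Otor were named after their values were seen.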

Additional observations from a re-analysis of the deposited data

How the results depend on the processing

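Of 143 values of the 9 tested members under the alternatives, 133 kept both their sign and their call, 1 gained a call (Capn9 with DESeq2, on the values for which the family was chosen) and 9 changed direction. The adjusted call counts were 0 genes and 0 members. DESeq2 called 24 genes and 1 member, and edgeR with no filter called 2 genes and 0 members. The cause was not tested. They were 0 with each library left out and under the other alternatives. Cast turned to 0.0155 on the log2 scale with library totals alone, 0.028 with no filter, 0.0241 on log2(FPKM + 0.1) and 0.0212 on log2(FPKM + 1). With a library left out, Cast ranged from -0.10 to 0.0059, Capns1 from -0.061 to 0.34 and Capn5 from -0.0087 to 0.40. The deviations of same-numbered libraries from their group means correlated at -0.001, 0.034 and 0.194. Libraries with different numbers were not compared, so these values cannot decide whether same-numbered libraries shared a preparation. With the replicate block 0 genes and 0 members were called, with 467 unadjusted calls against 476. Capn9 could not be fitted with at least 10 counts required in every library. Depth limits Capn3 and Capn9, with at most 3 and 46 counts in a library.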
